A study of Homo sapiens with 6 samples.

Results

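The cystatin cluster of human chromosome 20 was described as it was bound by estrogen receptor alpha (ERα, encoded by ESR1). Its members are the cystatin genes CST9, CST3, CST4, CST1, CST2 and CST5 and the gene GGTLC1, 7 genes in all. ERα-bound regions were taken from chromosome 20 where the summit, the highest point of a peak, lay between positions 23400000 and 24100000 of the genome build hg38 (GRCh38). After overlapping peaks of the 6 deposited peak lists were merged, 78 of 175206 regions met this rule. The window was chosen because ERα signal with the Y537S mutant was known to be low there relative to wild type (WT), so the values of Y537S against WT in it are a description.

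The measurements were chromatin immunoprecipitation and sequencing (ChIP-seq) of MDA-MB-453, a widely used line of human breast cancer cells that is classed as negative for estrogen receptor. The cells carried a doxycycline-inducible ERα that was the Y537S mutant, the K303R mutant or WT. Y537S replaces a tyrosine of the ligand-binding domain and is known from endocrine-resistant breast cancer as a receptor active without hormone. K303R lies in the hinge of the receptor. All 6 libraries came from cells that received 2 µg/mL doxycycline for 2 days, in medium with 10% fetal bovine serum, after 2 days of growth. For each receptor, 1 library came from cells that also received 1 nM estradiol (E2) for those 2 days and 1 from cells without added E2. Whether hormones had been removed from the serum is not stated. Nor do the labels say how many clones stand behind each receptor line, or whether the receptors were made in equal amounts. The antibody against ERα was D8H8. With 1 library per group, no difference has a replicate check, and no p-value is given.

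Cystatins are secreted inhibitors of cysteine proteases such as the lysosomal cathepsins. CST3 encodes cystatin C, which most cells make. CST1, CST2 and CST4 encode the salivary cystatins SN, SA and S, and CST5 encodes cystatin D, found in saliva and tears. CST9 is a less studied relative, and GGTLC1 encodes a protein that resembles the light chain of gamma-glutamyltransferase. ERα binds DNA at estrogen response elements, inverted pairs of the half-site GGTCA, and it is also found at sites without a full element.

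The sequences just upstream of CST5, CST3 and NAPB are shown first, because CST5 lay at a region that was low with Y537S, CST3 near regions that differed less, and NAPB in a region that was higher with Y537S. NAPB, at the lower end of the window, encodes a protein of vesicle fusion. Each is the 250 bases before the gene's start, 5′ to 3′ on the minus strand, from RefSeq (GRCh38.p14), and capitals mark an ERE half-site.
CST5 (chr20:23879749-23879998): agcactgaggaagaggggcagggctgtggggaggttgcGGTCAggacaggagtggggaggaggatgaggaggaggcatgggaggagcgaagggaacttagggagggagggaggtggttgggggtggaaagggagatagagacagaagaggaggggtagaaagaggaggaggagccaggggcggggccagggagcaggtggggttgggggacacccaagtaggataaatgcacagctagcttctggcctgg
CST3 (chr20:23637956-23638205): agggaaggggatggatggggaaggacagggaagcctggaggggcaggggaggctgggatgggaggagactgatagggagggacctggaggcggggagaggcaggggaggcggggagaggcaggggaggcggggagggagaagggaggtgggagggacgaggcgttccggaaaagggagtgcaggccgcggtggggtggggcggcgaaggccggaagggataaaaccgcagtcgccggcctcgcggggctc
NAPB (chr20:23421489-23421738): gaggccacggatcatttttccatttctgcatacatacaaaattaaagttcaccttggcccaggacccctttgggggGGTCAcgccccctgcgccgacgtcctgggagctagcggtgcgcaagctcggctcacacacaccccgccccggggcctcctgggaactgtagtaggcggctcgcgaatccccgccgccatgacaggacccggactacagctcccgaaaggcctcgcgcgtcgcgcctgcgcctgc

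Of the CST5 sequence, 161 bases lay inside an ERα-bound region. No base of the CST3 sequence did, and the nearest summit of a region in all 6 lists lay 2452 bp from the start. All 250 bases of the NAPB sequence lay inside a bound region. The full element GGTCANNNTGACC was in none of the 3, and it occurs in 0.0399% of 35116 promoters of that length. The half-site GGTCA, searched on both strands and so also as TGACC, occurred 1 time each before CST5 and NAPB and not before CST3. It occurs in 32.6% of those promoters, and any full element holds it. The GC box GGGCGG, searched on both strands, occurred in all 3, against 42.6% of promoters. The AP-1 motif TGANTCA, which reads the same on both strands, was in none of the 3, against 6.57% of promoters. The forkhead motif TGTTTAC, searched on both strands, was in none, against 2.98%. The TATA motif TATAAA, searched likewise, was in none, against 10.7%. A promoter entry was matched for 4 of the 7 members, CST9, CST3, CST5 and GGTLC1. No bound region reached the entries of CST9 and GGTLC1.

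The window held 42 regions in the Y537S library with E2 and 46 in the Y537S library without it. The K303R lists held 58 with E2 and 45 without, and the WT lists held 62 with E2 and 64 without. These are 0.0373% and 0.0393% of the regions listed for Y537S with and without E2, 0.0541% and 0.0424% of those for K303R, and 0.0509% in both WT libraries. The lists as a whole held 106186 to 125850 regions, so their lengths do not follow this order. Of the 78 merged window regions, 32 were in all 6 lists and 17 were in a single list. Of the 56 window regions in both WT lists, 15 were in neither Y537S list, which is 26.8%, against 9.97% of 102145 such regions over all chromosomes. Of the same 56 regions, 6 were in neither K303R list, which is 10.7%, against 12% over all chromosomes. Conversely, 2 window regions were in both Y537S lists and neither WT list.

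Signal is given as the number of sequenced fragments at a summit, a whole number recovered from the authors' fold enrichment and p-value. To compare libraries, each number was divided by that library's median over 33626 well-covered regions, which were in all 6 lists with a mean of at least 50 fragments. These medians were 112 and 99 fragments for Y537S with and without E2, 90 and 73 for K303R, and 102 and 100 for WT. Ratios below are on this scale, with a 95% exact interval that covers counting error only and not the difference between cultures. A region was called higher or lower when its ratio was past 1.5-fold and a wider interval, with an error level of 0.001, excluded 1. In the window 17 regions were well covered, and the other 15 in all 6 lists were under the minimum.

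Over the 32 regions in all 6 lists, the summed Y537S signal was well under the WT signal. The sum was 16.5 library medians (15.7 to 17.3) for Y537S with E2 and 15.9 (15.1 to 16.7) for Y537S without E2. It was 26.4 (25.3 to 27.4) for K303R with E2 and 26.4 (25.2 to 27.6) without. For WT it was 31.0 (30.0 to 32.1) with E2 and 30.4 (29.4 to 31.5) without. On this scale both Y537S sums lay under both K303R sums, which lay under both WT sums. That order without E2 depends on the scaling. In sum Y537S over WT was 0.531 and K303R over WT 0.850 with E2, and 0.522 and 0.866 without. Scaled by the lowest local background of each library, the background being the fragments expected from a summit's surroundings, they were 0.603 and 0.773 with E2, and 0.633 and 0.641 without, so the 2 mutants then lay level without E2.

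**Figure D1:**
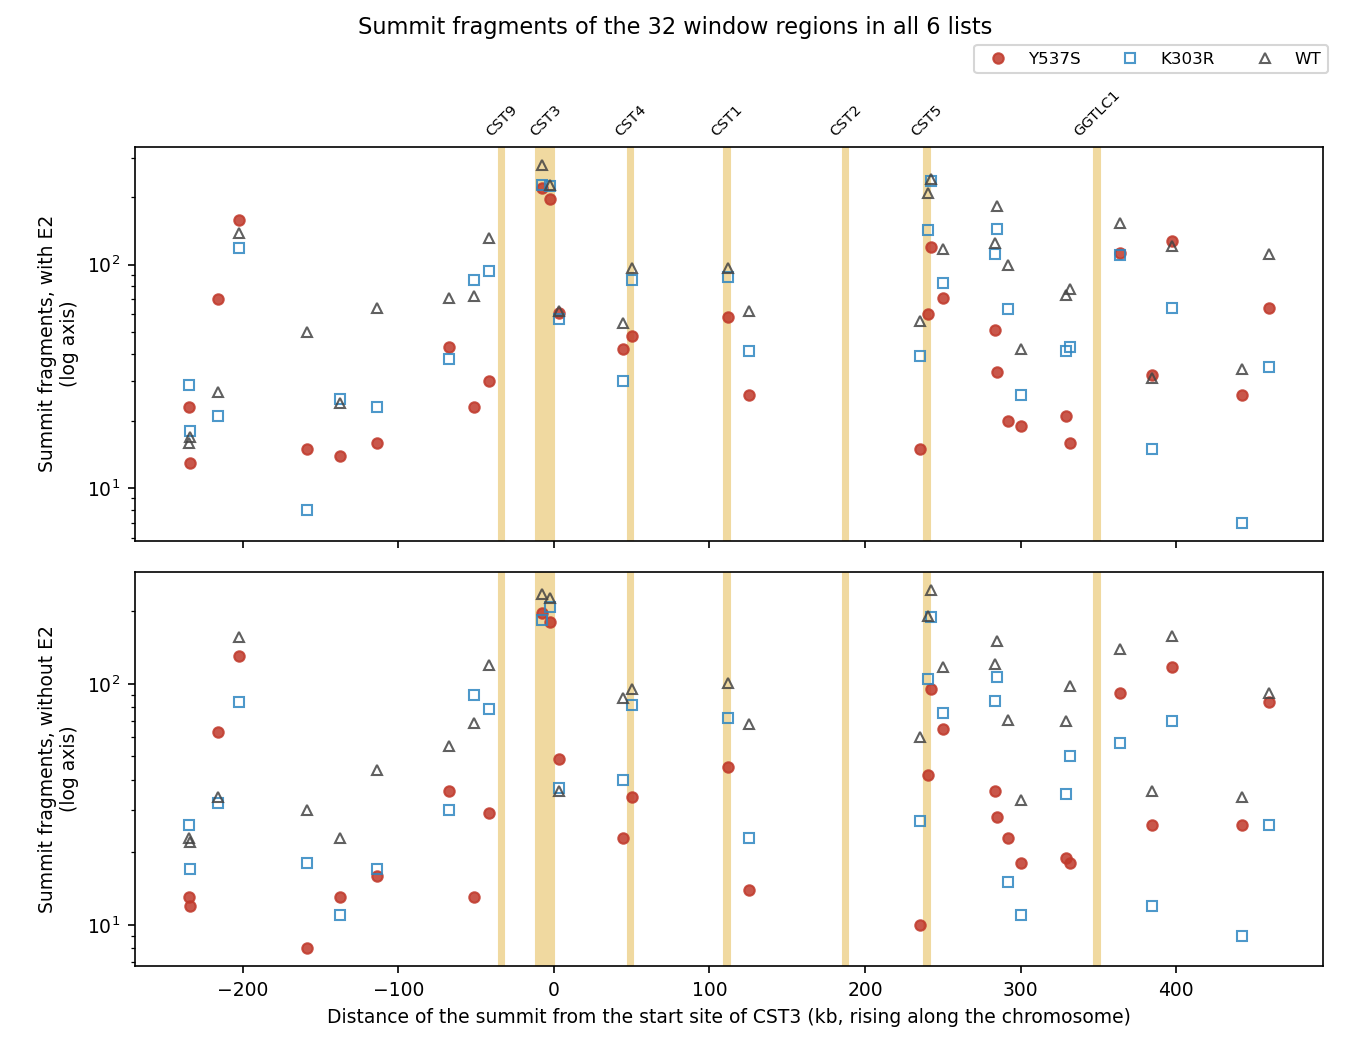
Fragments at the summit (log axis) of each of the 32 regions in all 6 lists, against the distance of the summit from the start of CST3, with E2 above and without E2 below; filled circles are Y537S, open squares K303R and triangles WT, each from 1 library, and shaded bars are the spans of the 7 member genes. The circles lie close to the other symbols at CST3 and below the triangles at all 11 regions from CST4 to CST5, while against the squares their place varies from region to region.

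Across the 17 well-covered window regions the median log2 ratio of Y537S over WT was -0.93 with E2 and -1.15 without. Over all 33626 well-covered regions it was -0.06 in both. With E2, 11 of the 17 were called lower and none higher, beside a background of 8.59% lower and 6.06% higher. Without E2, 10 were called lower and none higher, beside 9.15% and 8.05%. The members were chosen on this comparison, so nothing is read from these counts. With no minimum but the same library medians, 17 of the 32 regions were called lower in each treatment, beside 7.31% with E2 and 8.49% without E2 over 67735 regions in all 6 lists. In the other direction 1 was called higher with E2 and none without, beside 4.42% and 5.56%.

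The comparison of Y537S with K303R shares the Y537S libraries with the one above. Its median log2 ratio in the window was -0.92 with E2 and -1.12 without. With E2, 9 of 17 were called lower and none higher, beside a background of 12.5% and 8.90%. Without E2, 10 were called lower and 1 higher, beside 14.7% and 10.3%. Scaled by lowest local background, 7 were called lower and 1 higher with E2, beside 4.97% and 20.7%. Without E2 that scaling gave 7 lower and 4 higher, beside 2.27% and 44.7%, and over the 32 regions the number below 1 was 16, against 23 with library medians. The region called higher without E2 under library medians was 24097392-24098021, in the non-coding gene WAKMAR1 at the upper end, with 84 fragments for Y537S, 26 for K303R and 92 for WT.

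K303R was not named by the rule. With library medians its median log2 ratio over WT was -0.11 with E2 and -0.06 without, against 0.05 and 0.04 over all well-covered regions. With E2, 2 of 17 were called lower and none higher, beside a background of 7.89% and 6.33%. Without E2, 3 were called lower and 1 higher, beside 5.86% and 5.49%. All these regions called lower lay on the upper side of GGTLC1. With no minimum and the same library medians, 5 of the 32 were called lower and none higher with E2, beside 6.06% and 4.54%. Without E2, 4 were called lower and 1 higher, beside 4.23% and 4.03%. Scaling by lowest local background gave more lower calls without E2. It called 6 of the 17 lower and none higher, beside 22.7% and 0.642%, and 13 of the 32 lower and none higher, beside 16.0% and 0.579%.

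CST3 held the 2 window regions with the highest mean signal, and in sum its ratios of Y537S over WT and over K303R lay nearer to 1 than those of CST9, CST4, CST1 and CST5. Its 23629946-23630612 region, inside the gene, had 220 fragments for Y537S, 228 for K303R and 279 for WT with E2. Without E2 it had 196 for Y537S, 184 for K303R and 237 for WT. The Y537S over WT ratio was 0.718 (0.599 to 0.860) with E2 and 0.835 (0.688 to 1.01) without, and neither was called. The span of CST3 held 4 regions, of which 2 were not in all 6 lists. Of these, 23637228-23637589 was in both Y537S lists only, with 57 fragments with E2 and 43 without. The other, 23629074-23629301, was in the K303R list with E2 only, with 36. The second region inside CST3 in all 6 lists, 23635177-23635782, had 197 fragments for Y537S, 224 for K303R and 228 for WT with E2. Without E2 it had 180 for Y537S, 208 for K303R and 227 for WT. Its Y537S over WT ratios of 0.787 (0.647 to 0.956) and 0.801 (0.655 to 0.978) were again not called. Another region, 23641110-23641562, 3155 bp beyond the start of CST3, had 61 fragments for Y537S, 57 for K303R and 62 for WT with E2, and 49 for Y537S, 37 for K303R and 36 for WT without. The Y537S counts were the lowest at 23635177-23635782. At 23629946-23630612 the counts of Y537S and K303R overlapped, but once divided by library medians Y537S over K303R was 0.775 (0.641 to 0.937) with E2 and 0.785 (0.639 to 0.966) without. At 23635177-23635782 it was 0.707 with E2 and 0.638 without, where it was called lower. Scaled by lowest local background, the ratios without E2 were 1.29 and 1.05 at these regions, neither called. Summed over the 3 CST3 regions in all 6 lists, Y537S over WT was 0.765 (0.676 to 0.866) with E2 and 0.859 (0.753 to 0.979) without. When libraries were scaled by their lowest local background instead, the ratio without E2 was 1.04, so the direction there depends on the scaling.

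CST5 stood apart from CST3. The region 23878526-23879000, inside CST5, had 60 fragments for Y537S, 142 for K303R and 209 for WT with E2. Without E2 it had 42 for Y537S, 105 for K303R and 192 for WT. The 2 Y537S libraries were the lowest and the 2 WT libraries the highest. Y537S over WT was 0.261 (0.193 to 0.350) with E2 and 0.221 (0.154 to 0.310) without, both called lower. The region over the CST5 promoter, 23879838-23880457, which begins 90 bp upstream of the gene and holds part of the sequence printed above, had 120 fragments for Y537S, 237 for K303R and 241 for WT with E2. Without E2 it had 95 for Y537S, 190 for K303R and 245 for WT. Here K303R over WT was 1.11 (0.928 to 1.34) with E2 and 1.06 (0.874 to 1.29) without, where scaling by lowest local background gave 1.01 and 0.786. By contrast, Y537S over WT was 0.453 (0.361 to 0.567) and 0.392 (0.306 to 0.498), called lower in both treatments.

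Past the start of CST5, 7991 bp away, the region 23887739-23889150 had 71 fragments for Y537S, 83 for K303R and 117 for WT with E2, and 65 for Y537S, 76 for K303R and 118 for WT without. Near the cystatin pseudogene CSTP1 the difference was larger. The region 23920135-23921607, which overlaps CSTP1, had 51 fragments for Y537S, 111 for K303R and 125 for WT with E2, and 36 for Y537S, 85 for K303R and 121 for WT without. The neighbouring region 23922367-23922852 had 33 fragments for Y537S, 144 for K303R and 182 for WT with E2, and 28 for Y537S, 107 for K303R and 150 for WT without. At that neighbour Y537S over WT was 0.165 (0.110 to 0.240) and 0.189 (0.121 to 0.284). With E2 this was the lowest ratio among the 32 regions.

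In the regions inside the salivary cystatin genes CST4 and CST1, both Y537S libraries again had the lowest counts. This did not hold at 23681852-23682485, 3155 bp from CST4. With E2 it had 42 fragments for Y537S, 30 for K303R and 55 for WT, and without E2 it had 23, 40 and 87. The region inside CST4, 23687797-23688565, had 48 fragments for Y537S, 85 for K303R and 97 for WT with E2, and 34 for Y537S, 82 for K303R and 95 for WT without. The region inside CST1, 23749681-23750339, had 58 fragments for Y537S, 88 for K303R and 97 for WT with E2, and 45 for Y537S, 72 for K303R and 101 for WT without. Y537S over WT was 0.451 (0.312 to 0.643) and 0.362 (0.237 to 0.540) at CST4, and 0.545 (0.386 to 0.762) and 0.450 (0.309 to 0.646) at CST1, all called lower. Scaled by lowest local background, the CST1 ratio with E2 was 0.618 and was no longer called. K303R over WT at these regions lay between 0.977 and 1.18, or between 0.722 and 0.936 when scaled by lowest local background, and was not called. CST2 held no region. The nearest one, 23830278-23830769, 3549 bp away, was in 3 lists, and the nearest in all 6, 23872912-23873637, lay 46183 bp away and 2297 bp from CST5. That region had 15 fragments for Y537S, 39 for K303R and 56 for WT with E2, and 10 for Y537S, 27 for K303R and 60 for WT without. CST1, CST2, CST4, CST5 and CSTP1 are related in sequence, to differing degrees that were not measured here. How reads that match several of them were treated is not given in the sources used here, so signal may have been divided among them.

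CST9 held no region in its span. The strongest region near it, 23595849-23596611, 5799 bp away, had 30 fragments for Y537S, 94 for K303R and 132 for WT with E2. Without E2 it had 29 for Y537S, 79 for K303R and 120 for WT. Y537S over WT was 0.207 (0.134 to 0.310) and 0.244 (0.157 to 0.369), called lower in both treatments. A weaker region closer to the gene, 23607270-23608025, 1353 bp away and in 5 lists, was not low with Y537S. It had 18 fragments for Y537S, 17 for K303R and 10 for WT with E2. Without E2 it had 15 for Y537S and 18 for WT. Its Y537S over WT ratios were 1.64 (0.717 to 3.97) and 0.842 (0.395 to 1.77), neither called. On the lower side of CST9, the region 23586146-23586876 at the pseudogene CST9LP2 was named after its values were seen. It had 23 fragments for Y537S, 85 for K303R and 72 for WT with E2, and 13 for Y537S, 90 for K303R and 69 for WT without. K303R over WT there was 1.79 (1.29 to 2.48) without E2, the single window region called higher for K303R over WT. Scaled by lowest local background it was 1.32 and was not called.

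GGTLC1 held no region, and the values differed between its sides. On its lower side the region 23969654-23970140 had 16 fragments for Y537S, 43 for K303R and 78 for WT with E2, and 18 for Y537S, 50 for K303R and 98 for WT without. Y537S over WT was 0.187 (0.102 to 0.323) and 0.186 (0.106 to 0.309). This region was named after its values were seen, and these ratios were the lowest of the 3 regions on that side. On its upper side, 12847 bp away, the region 24001626-24002775 had 113 fragments for Y537S, 110 for K303R and 153 for WT with E2, and 92 for Y537S, 57 for K303R and 139 for WT without. Farther up, 24034796-24035459 had 127 fragments for Y537S, 64 for K303R and 121 for WT with E2, and 117 for Y537S, 70 for K303R and 158 for WT without. At this last region K303R was the lowest receptor, with K303R over WT at 0.599 (0.436 to 0.818) and 0.607 (0.451 to 0.809), both called lower. Y537S over WT was 0.956 (0.739 to 1.24) with E2, where scaling by lowest local background gave 1.08, and 0.748 (0.584 to 0.956) without E2, and neither was called.

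Low Y537S signal therefore did not span the window evenly. Over the 3 regions from CST9L to CST9, Y537S over WT was 0.318 (0.249 to 0.402) with E2 and 0.323 (0.247 to 0.418) without. Over the 11 regions from CST4 to CST5 it was 0.369 (0.334 to 0.408) with E2, where 10 were called lower, and 0.320 (0.286 to 0.358) without E2, where all 11 were. Over the 3 regions on the lower side of GGTLC1 it was 0.264 (0.193 to 0.357) and 0.276 (0.201 to 0.374). These stretches lie on both sides of CST3, whose 3 regions had no call for Y537S over WT in either treatment. Over the 5 regions on the upper side of GGTLC1 it was 0.733 (0.636 to 0.843), with 1 called lower, and 0.759 (0.658 to 0.875), with none. In all, 17 of the 32 regions lay between the first and the last member, and in sum over these Y537S over WT was 0.467 (0.433 to 0.503) and 0.450 (0.415 to 0.487). With E2, 12 of these were called lower, and without E2, 13 were. Over all 67735 regions in all 6 lists, 7.31% were called lower with E2 and 8.49% without. The window was picked on this comparison, so nothing is read from the counts of calls in this paragraph. Each of the sums above stayed below 1 under the other scalings, except CST3 without E2.

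The lower end of the window, before the members, differed again. The region 23434907-23435650 near CSTL1, a cystatin-like gene, had 159 fragments for Y537S, 119 for K303R and 139 for WT with E2, and 131 for Y537S, 84 for K303R and 156 for WT without. Y537S over WT was 1.04 (0.824 to 1.32) with E2 and 0.848 (0.667 to 1.08) without, where scaling by lowest local background gave 1.03. The 3 regions in all 6 lists nearest to CST8, a cystatin of the male reproductive tract, were all under the minimum. They held 45 fragments in sum for Y537S, 56 for K303R and 138 for WT with E2, and 37, 46 and 97 without. Y537S over WT in sum was 0.297 (0.207 to 0.419) with E2 and 0.385 (0.256 to 0.568) without. K303R over WT was 0.460 (0.331 to 0.632) and 0.650 (0.447 to 0.932). With E2 the K303R count was 8 against 50 for WT at 23479037-23479460, but 25 against 24 at 23500280-23500654. The region over the NAPB promoter, 23421432-23421943, had 70 fragments for Y537S, 21 for K303R and 27 for WT with E2, and 63 for Y537S, 32 for K303R and 34 for WT without. It was the single region of the 32 called higher for Y537S over WT, at 2.36 (1.49 to 3.83) with E2. Without E2 the ratio was 1.87 (1.21 to 2.93), and it was not called, although scaling by lowest local background gave 2.27, called higher.

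**Figure D2:**
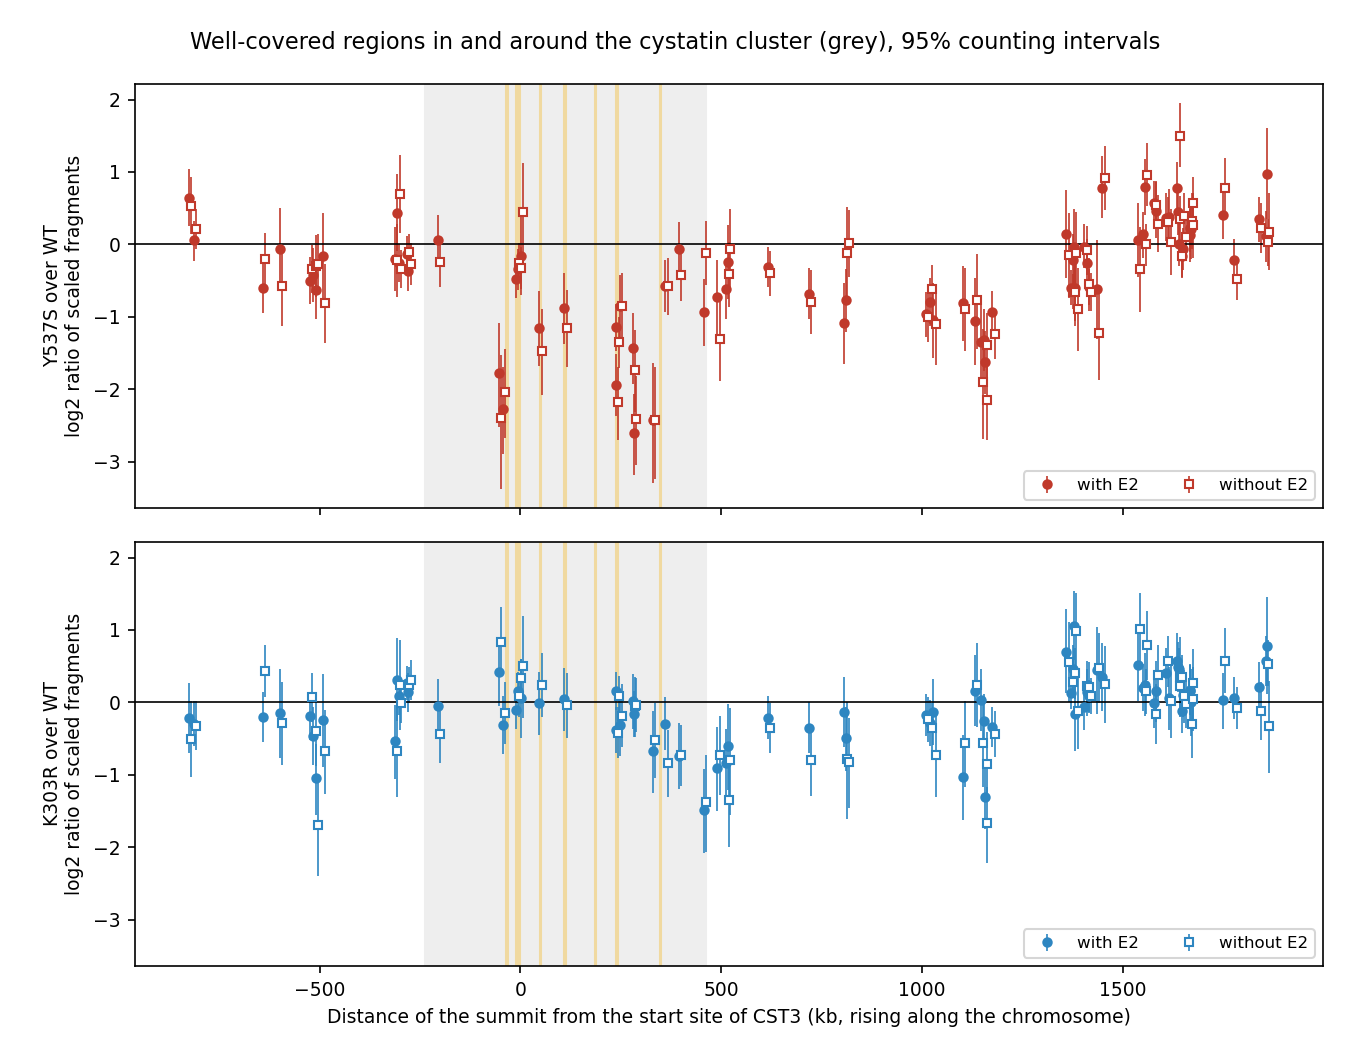
Log2 ratio of scaled summit fragments at the well-covered regions in the window (grey) and around it, against distance from the start of CST3. Ratios are Y537S over WT and K303R over WT with and without E2, with 95% exact counting intervals. Of the 17 window regions, points for Y537S lie below 0 at 16 in each treatment. They run from -0.48 to 0.46 at the 3 CST3 regions and from -2.60 to -0.85 at the well-covered regions from CST4 to CST5.

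Against WT, K303R was also low on the upper side of GGTLC1. Over the 5 regions there K303R over WT was 0.582 (0.494 to 0.683) with E2 and 0.519 (0.434 to 0.620) without, and it was below 1 under every scaling tried. In each treatment 3 of the 5 were called lower. Over all regions in all 6 lists, 6.06% were called lower for K303R with E2 and 4.23% without. Over the 11 regions from CST4 to CST5 K303R over WT was 0.898 (0.828 to 0.974) and 0.861 (0.788 to 0.940). No region was called with E2 and 1 was called lower without, beside the same shares, and nothing is read from these counts. At CST3 the K303R over WT ratio was 1.01 (0.898 to 1.14) and 1.18 (1.03 to 1.34), and scaling by lowest local background turned these to 0.923 and 0.869.

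**Figure D3:**
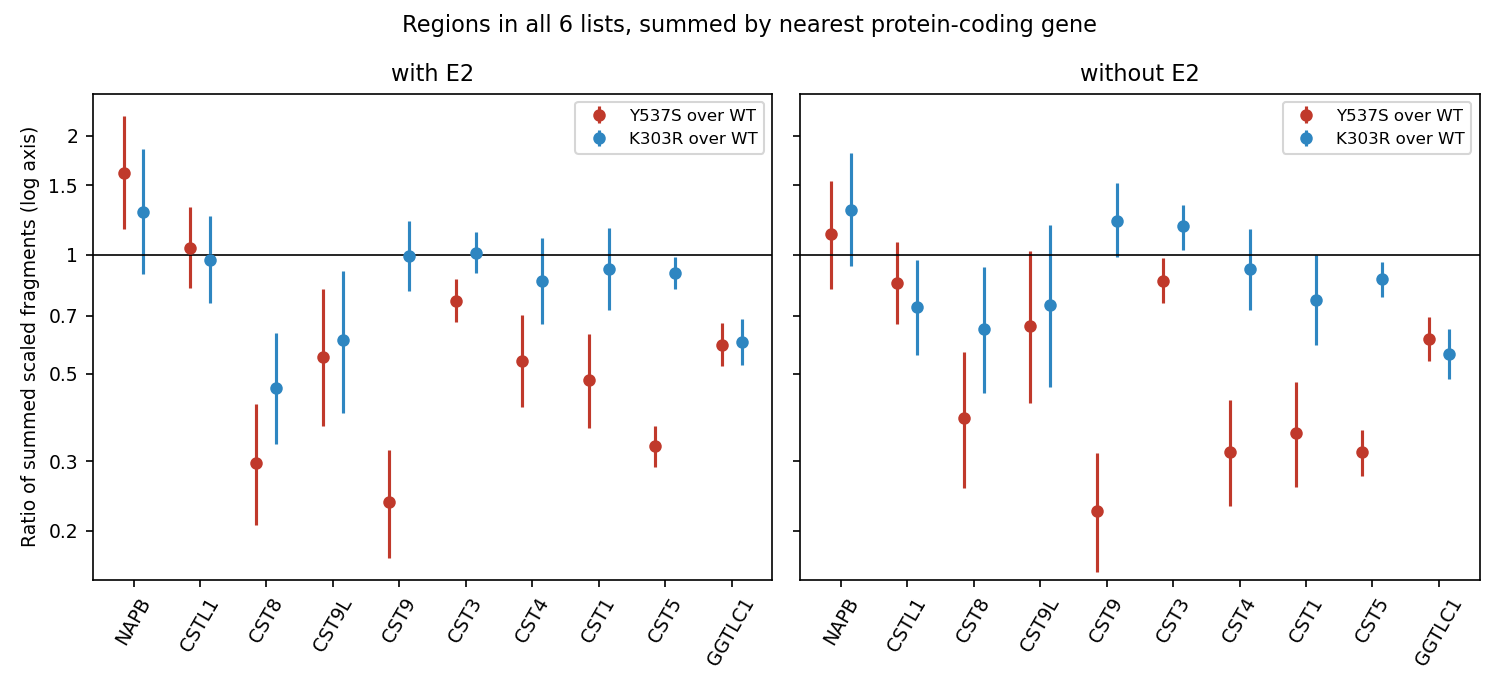
Ratio of summed fragments (log axis), with 95% exact counting intervals, for the window regions in all 6 lists grouped by the nearest protein-coding gene in order along the chromosome; CST2 has no such region. Y537S over WT is lowest at CST9 and returns to 0.765 and 0.859 at CST3, while K303R over WT lies between 0.770 and 1.22 from CST9 to CST5, all below 1 when scaled by lowest local background, and is 0.601 and 0.560 at GGTLC1.

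The median log2 ratio of E2 over no E2 was 0.10 for Y537S, 0.01 for K303R and 0.02 for WT, with the K303R value at 0.40 when scaled by lowest local background. No well-covered window region was called in any line, beside backgrounds of 0.0862% higher and 0.0833% lower for Y537S, 2.05% and 1.05% for K303R, and 1.55% and 0.684% for WT. With no minimum, 1 of the 32 regions was called with E2 over no E2 in K303R, beside 1.30% higher and 0.992% lower for K303R. That region, 23929773-23930463, named after its values were seen, had 63 fragments for K303R with E2 and 15 without, a ratio of 3.41 (1.92 to 6.44). At the CST5 promoter E2 over no E2 was 1.12 (0.846 to 1.48) for Y537S, 1.01 (0.832 to 1.23) for K303R and 0.964 (0.804 to 1.16) for WT. With library medians, no difference with E2 was detectable there at this depth. For K303R this rests on the scaling. Over the 11 regions from CST4 to CST5, its E2 over no E2 ratio in sum was 1.05 with library medians. Scaled by lowest local background, that ratio was 1.38.

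The local background, the fragments expected at a summit from its surroundings, moved with the signal. At the CST5 promoter it was 6.51 and 5.17 fragments for Y537S with and without E2, 14.8 and 12 for K303R, and 18.7 and 18.2 for WT. At the CST3 region 23635177-23635782 it was 13.2 and 10.8 for Y537S, 13.4 and 11.2 for K303R, and 12.8 and 12.2 for WT. Over the 17 regions the median ratio of local background for Y537S over WT was 0.512 with E2 and 0.369 without, against 1.03 and 0.882 over all well-covered regions. For K303R over WT it was 0.809 and 0.657, against 0.948 and 0.819. Whether the control behind this background holds the same bound fragments is not given in the sources used here. The part of DNA copy number, chromatin state or receptor amount in the low values was not tested. The Y537S lists also carry a date-like tag in their peak names that differs from the one shared by the K303R and WT lists, so receptor, line and tag cannot be told apart for Y537S.

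Low values with Y537S reached farther past the upper edge of the window than past the lower one. The first region inside the window, 23402857-23403500 in NAPB, had 23 fragments for Y537S, 29 for K303R and 16 for WT with E2, and 13 for Y537S, 26 for K303R and 23 for WT without. The last region before the window in all 6 lists, 23374387-23374845 in NAPB, had 33 fragments for Y537S, 10 for K303R and 19 for WT with E2, and 20 for Y537S, 14 for K303R and 18 for WT without. The first such region after it, 24113897-24114386, had 37 fragments for Y537S, 33 for K303R and 63 for WT with E2, and 21 for Y537S, 15 for K303R and 39 for WT without. Over the 0.7 Mb before the window, with 13 well-covered regions, the median log2 ratio of Y537S over WT was -0.20 with E2, with 1 called lower and 1 higher, and -0.27 without, with none called. Over the 0.7 Mb after it, with 15, it was -0.81 with 10 called lower, and -0.79 with 8, and none was called higher. Over all well-covered regions 8.59% were called lower and 6.06% higher with E2, and 9.15% and 8.05% without. The 15 regions after the window lay around SYNDIG1, which encodes a membrane protein of synapses. Over these 15 the median log2 ratio of K303R over WT was -0.28 with E2 and -0.73 without, so both mutants were below WT. In the next 0.7 Mb, with 31 well-covered regions, the median for Y537S over WT was 0.12 with E2 and 0.03 without. With E2, 3 were called lower and 3 higher, and without E2, 4 and 4. As many were called higher as lower, and beside the shares over all well-covered regions given above, nothing is read from these counts. The region 24815905-24816903, named after its values were seen and nearest to CST7, which encodes cystatin F, was lower in both treatments, with Y537S over WT at 0.522 (0.425 to 0.639) and 0.423 (0.333 to 0.534). In this stretch the last region called lower in both, 25055831-25056806, lay 956 kb past the window.

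Over the 1029 well-covered regions on the rest of chromosome 20 the median log2 ratio of Y537S over WT was -0.03 with E2 and -0.04 without. Among 64 other windows of 0.7 Mb on the chromosome with at least 5 such regions, the medians ran from -0.81 to 0.48 with E2 and from -0.79 to 0.59 without, all above the cystatin window. For K303R over WT, 17 of the 64 with E2 and 22 without were at or below the cystatin window. The rank for Y537S is again a description, since the window was picked for its low value.

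**Figure D4:**
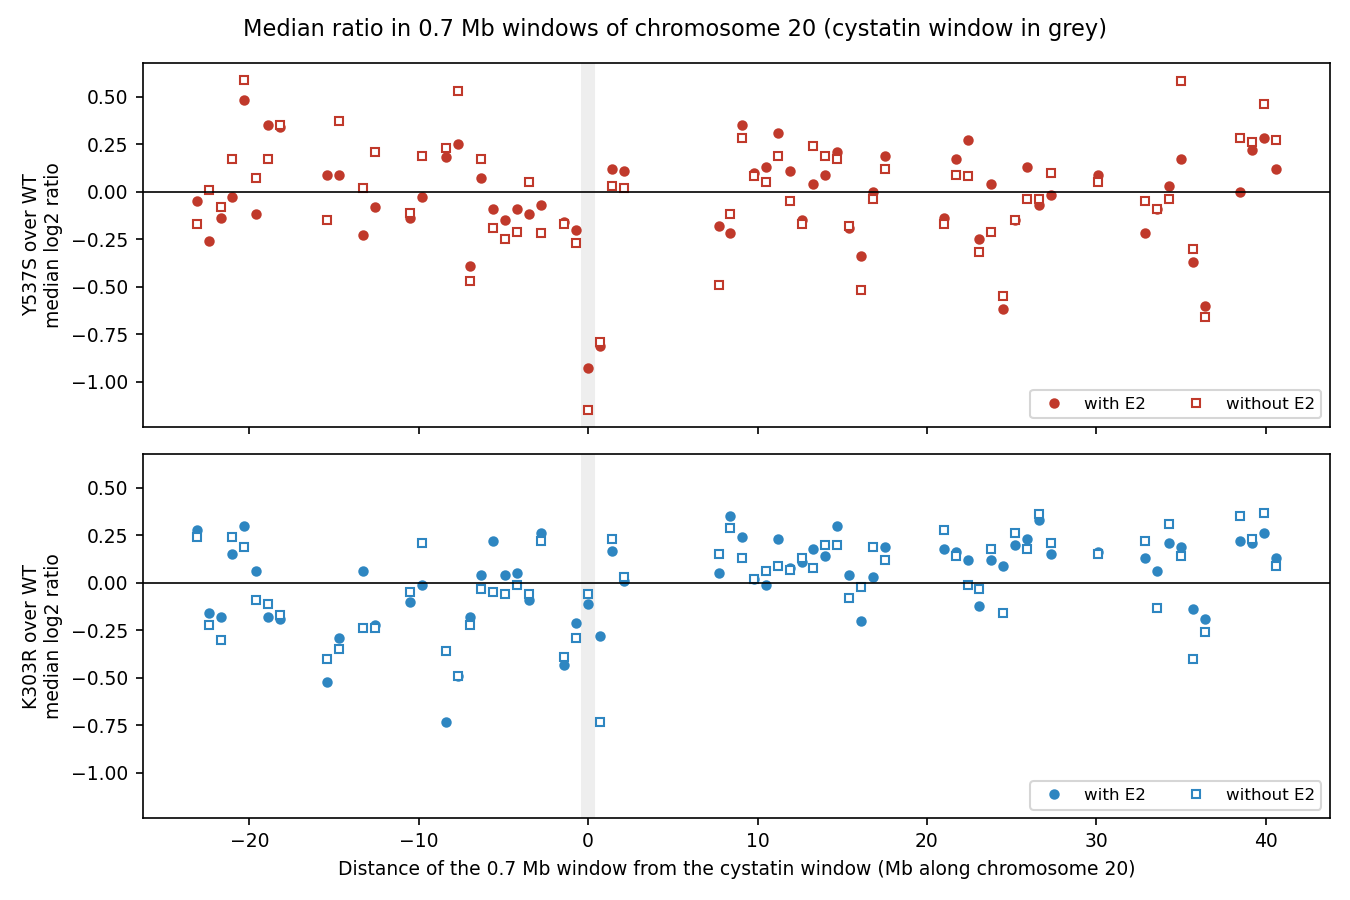
Median log2 ratio over well-covered regions in windows of 0.7 Mb along chromosome 20, counted from the cystatin window at 0, for Y537S over WT and K303R over WT with and without E2. The cystatin window is the lowest for Y537S, at -0.93 and -1.15, and the window after it is the next low neighbour at -0.81 and -0.79.

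Other genes related to the members were described by their strongest region within 25 kb. For 12 other cystatin family genes, 8 had a well-covered one, and CST11 and CSTL1 share theirs. The regions of CST9L, CST11 and CSTL1 lie inside the window that was picked for low Y537S over WT. The counts below are thus not separate from that choice, and nothing is read from them. With E2, 2 of the 8 were called lower for Y537S over WT and none higher, with a median ratio of 1.01, and without E2, 2 were lower and 1 higher, with a median of 0.848. The shares over all well-covered regions were 8.59% lower and 6.06% higher with E2, and 9.15% and 8.05% without. CST6 on chromosome 11, which encodes cystatin E/M, had 66 fragments for Y537S, 257 for K303R and 150 for WT with E2, and 62 for Y537S, 206 for K303R and 137 for WT without. Its Y537S over WT ratio was 0.401 (0.295 to 0.539) and 0.457 (0.333 to 0.621), called lower, and K303R over WT was 1.94 (1.58 to 2.39) and 2.06 (1.65 to 2.58), called higher. The 2 mutants thus lay on opposite sides of WT at CST6. The other lower call, for CST9L, is the CST9LP2 region above, and the higher one is AHSG (fetuin-A), at 1.71 (1.37 to 2.14).

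Of 12 genes of lysosomal cysteine proteases, the class of enzyme that cystatins act on, 4 had a well-covered region. Of these 1 was called lower for Y537S over WT in each treatment, beside 8.59% with E2 and 9.15% without, and none higher. It was CTSO, cathepsin O, with 28 fragments for Y537S, 81 for K303R and 56 for WT with E2, and 22 for Y537S, 61 for K303R and 71 for WT without. Its Y537S over WT ratio was 0.455 (0.278 to 0.729) with E2 and 0.313 (0.185 to 0.511) without. CTSZ, cathepsin Z, elsewhere on chromosome 20, was bound by all 3 receptors, with 274 fragments for Y537S, 266 for K303R and 264 for WT with E2, and 280 for Y537S, 207 for K303R and 228 for WT without. Of 5 relatives of GGTLC1, 4 had a well-covered region. For Y537S over WT, 2 of them were called lower with E2, beside 8.59%, and 3 without, beside 9.15%, and none was called higher. GGTLC2, a light chain gene on chromosome 22, had 49 fragments for Y537S, 73 for K303R and 142 for WT with E2, and 63 for Y537S, 59 for K303R and 126 for WT without.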

How the data were processed

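Peak lists of 6 ChIP-seq libraries, 1 list per library, were analysed. Per the submitters' processing notes, Bowtie2, SAMtools, Picard, bedtools and MACS2 were used with the build hg38. Versions, settings, the control and the peak threshold are not given in the sources used. For each peak the authors' lists hold, as deposited, a fold enrichment, which is a ratio to the local background, p and q on a −log10 scale, and an unused score.

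Groups were taken from the sample titles. Fragments at a summit were recovered by solving 2 equations: fold = (n + 1)/(background + 1) and the p-value of a Poisson count above n. The deposited p was matched within 0.01% for 100.0% of regions in each library. Sequencing depth is not known directly. Lists were merged where peaks on chromosomes 1 to 22 and X overlapped by at least 1 bp. Of 175206 merged regions 67735 were in all 6 lists, and 33626 of these had a mean of at least 50 fragments. Ratios were divided by the ratio of the libraries' medians over those 33626. Intervals are exact conditional binomial intervals and cover counting error only. The steps were tested on simulated data.

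Regions given in full by rule were the 10 window regions with the highest mean. For each member, the strongest region in or nearest its span was added. Regions at the window's edges were given by their position. Every other window region given in full was named after its values were seen, also where it is not marked so. These include 23641110-23641562, 23969654-23970140, 23421432-23421943 and 24097392-24098021. The members and gene lists were chosen with earlier results of these data known. Genes and promoters came from RefSeq (GRCh38.p14), without exons, so positions within genes were not annotated. Python 3.11.15, numpy 2.4.6, pandas 2.3.3, scipy 1.17.1 and matplotlib 3.10.9 were used. Alternatives changed the scaling, the minimum, the summit, the peak threshold, the merging, the window and the call.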

Additional observations from a re-analysis of the deposited data

How the results depend on the processing

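The median log2 ratio in the window stayed below 0 for Y537S over WT, Y537S over K303R and K303R over WT under all 10 alternatives run for each. It ran from -1.15 to -0.75 with E2 and from -1.54 to -0.87 without for Y537S over WT. For Y537S over K303R it ran from -1.22 to -0.52 with E2 and from -1.56 to -0.40 without. For K303R over WT it ran from -0.28 to -0.06 with E2 and from -0.49 to -0.03 without. No paired analysis was possible because each group has 1 library, so the groups share fewer than 2 replicate numbers. A fit that takes the 2 treatments of a receptor as repeats of each other was not run, since they are different conditions. Centring on the median of the ratios was an alternative chosen after seeing the data.

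Scaling by the lowest local background moved most of the medians. Over all well-covered regions it gave 0.12 and 0.22 for Y537S over WT with and without E2, 0.25 and 0.65 for Y537S over K303R, -0.09 and -0.39 for K303R over WT, and for E2 over no E2 -0.01 in Y537S, 0.36 in K303R and 0.09 in WT. In the window the same scaling gave -0.75 and -0.87 for Y537S over WT, -0.60 and -0.40 for Y537S over K303R, -0.25 and -0.49 for K303R over WT, 0.40 for E2 in K303R and 0.11 for E2 in WT, with 1 region called for E2 in K303R. The control behind that background is not given, and the cause of the shift was not tested.

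With a minimum mean of 20 fragments the medians were -0.72 and -0.88 for Y537S over K303R with and without E2, and -0.28 and -0.37 for K303R over WT. More regions were tested. For Y537S over WT, 17 were called lower and 1 higher with E2, and 17 lower and none higher without. For K303R over WT with E2, 4 were called lower, and for E2 in K303R 1 was called higher. Where a count of calls in this section has no share over all regions beside it, that share was not computed, and nothing is read from the count. With no minimum, over regions in all 6 lists and scaled by library medians over all 67735 of them, the medians were -0.88 for Y537S over WT without E2, -0.81 and -0.77 for Y537S over K303R, and -0.22 and -0.33 for K303R over WT. There 18 regions were called for Y537S over WT with E2, 4 for K303R over WT with E2 and 1 for E2 in K303R. With regions in any list and an absent library set at 3 fragments, the medians were -1.15 and -1.54 for Y537S over WT, -0.52 and -0.44 for Y537S over K303R, -0.20 and -0.43 for K303R over WT, and -0.18 for E2 in Y537S.

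With summits within 100 bp of the highest, the medians were -0.87 for Y537S over WT without E2 and -0.70 and -0.89 for Y537S over K303R. With a −log10 q of at least 10 they were -0.98 for Y537S over WT without E2 and -0.72 and -0.87 for Y537S over K303R. Over the span of the 7 members and 25 kb they were -1.15 and -1.41 for Y537S over WT and -1.22 and -1.56 for Y537S over K303R. A 2-fold rule called 1 region lower for K303R over WT in each treatment. A 95% interval called 1 region higher for E2 in K303R and 1 higher in WT. Over the 32 regions in all 6 lists the median local background ratio was 0.558 and 0.441 for Y537S over WT, 0.727 and 0.665 for Y537S over K303R, and 1.10 for E2 over no E2 in K303R. Low counts limit single regions: at 15 fragments for Y537S against 56 for WT, 2297 bp from CST5, the 95% interval of the ratio ran from 0.128 to 0.437.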
